A study of Arabidopsis thaliana with 21 samples.

Results

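The asil2-2 mutant of Arabidopsis thaliana was compared with its wild type, Landsberg erecta (Ler), in seedlings collected 14 days after germination. The comparison took 6 of the 21 libraries of the series, 3 titled as asil2-2 seedlings and 3 titled as Ler seedlings, and covered every gene with enough counts. asil2-2 carries a mutant allele of ASIL2 in the Landsberg erecta ecotype, and Ler carries the wild-type allele in the same ecotype. Other genotypes of the series are set beside them, each with 3 libraries from seedlings of the same age. The double mutant asil1-1 asil2-2 shares the asil2-2 allele and is labelled as mixed Columbia-0 and Landsberg erecta. It is set beside the same Ler libraries. Another ASIL2 allele, asil2-1, is in the Columbia ecotype, and Col-0 is wild-type Columbia. The ASIL1 mutant asil1-1 and the double mutant asil1-1 asil2-1 are described only for their ASIL2 and ASIL1 levels. They also enter a search for genes with counts in asil2-2 and few elsewhere. All plants grew at 22 °C on sucrose-free MS medium, in days of 16 h light. Whole frozen seedlings were extracted and polyadenylated RNA was selected from 5 µg of total RNA, so fewer cells of a type and less RNA per cell cannot be told apart. The submitters describe the replicates of each genotype as biological. The labels do not give the nature of the lesion in asil2-2, whether the line was backcrossed, or whether it rests on more than 1 plant line.

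ASIL1 and ASIL2 are plant trihelix transcription factors, a class that binds GT elements in promoters. They are known in Arabidopsis for holding down the seed maturation programme once a seedling has begun to grow, and ASIL1 was identified through its binding to a GT-box in a seed storage protein promoter. Genes for rapid stress signalling, cold acclimation and salicylate defence, which recur below, are normally expressed at a low level in undisturbed seedlings and are induced within minutes to hours by touch, cold or pathogens.

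The asil2-2 libraries held 13.41 M, 23.43 M and 20.94 M counts (M, 1e+06) and the Ler libraries 6.52 M, 28.79 M and 14.13 M, so Ler replicate 1 was the shallowest of the 6. Levels are given as counts per 1e+06 counts (CPM) after trimmed-mean scaling. A gene is said to have risen, fallen or been called where the adjusted p was under 0.05 in edgeR's quasi-likelihood test with Benjamini-Hochberg adjustment over all 19589 genes tested. Log2 fold changes are asil2-2 over Ler, with their standard error (SE). The first principal component of the 6 libraries held 40.7% of their variance and separated the genotypes. As a check of the ecotype label, all 12 genes that Ler expressed and Col-0 did not were expressed at 5 CPM or more in asil2-2, whereas 0 of the 26 genes that Col-0 expressed and Ler did not reached that level. asil1-1 asil2-2 was mixed by the same check, with 9 of the 26 Col-0 genes at 5 CPM or more and 3 of the 12 Ler genes at no more than 3 counts, so its likeness to Col-0 or Ler at a gene cannot be told apart from its mixed ecotype.

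Between the genotypes 1167 genes were called, which is 5.96% of those tested. Of these, 468 rose in asil2-2 (2.39%) and 699 fell (3.57%), with a median log2 fold change of 0.71 among those that rose and -0.69 among those that fell. A change of at least 2-fold was seen for 146 genes that rose and 193 that fell. All 3 asil2-2 libraries lay above all 3 Ler libraries for 449 of the genes that rose, and below them for 661 of those that fell. Over all genes tested the libraries did not overlap in 12.3% upward and in 12.3% downward. These shares, with 2.39% risen and 3.57% fallen, are the background for the counts of each list below. The shares risen and fallen differed with gene length, as given with the photosynthesis genes below. With library size alone as the scaling, which moved the median of all genes by 0.07, the split turned to 780 higher (58.0%) and 564 lower (42.0%), against 40.1% higher and 59.9% lower with trimmed-mean scaling. The number of calls fell to 723 without asil2-2 replicate 1, 482 without asil2-2 replicate 2, 516 without Ler replicate 2 and 565 without Ler replicate 3, in fits that rest on fewer libraries.

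ASIL2 itself (AT3G14180, chr3:4706802-4709176, minus strand, TAIR10.1) was measured at 21.8, 19.7 and 31.7 CPM in asil2-2, against 26.8, 33.9 and 34.1 CPM in Ler. The asil2-2 values reached into the Ler range in replicate 3, and the log2 fold change of -0.38 ± 0.20 (SE) was not called (edgeR quasi-likelihood, adjusted p = 0.268). A count over the whole gene shows the amount of transcript, not its form, so it neither checks nor contradicts the label. In the other lines with an ASIL2 mutation the mean stood above wild type. It was 75.9 ± 15.5 CPM in asil1-1 asil2-2, 168 ± 32.5 CPM in asil1-1 asil2-1 and 435 ± 54.5 CPM in asil2-1. The wild types had 31.6 ± 4.15 CPM in Ler and 38.1 ± 8.97 CPM in Col-0 (SD, n = 3 each). The asil1-1 line, titled without an ASIL2 mutation, also stood above Col-0, with 50.9, 58.0 and 53.5 CPM against 32.7, 33.2 and 48.5 CPM. Which mutation goes with the raised level in the double mutants was not tested. Of the 4 genotypes with an ASIL2 mutation, asil1-1 asil2-1 included, asil2-2 alone had a mean ASIL2 level below that of its wild type, by less than the error of the comparison allows to call.

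**Figure D1:**
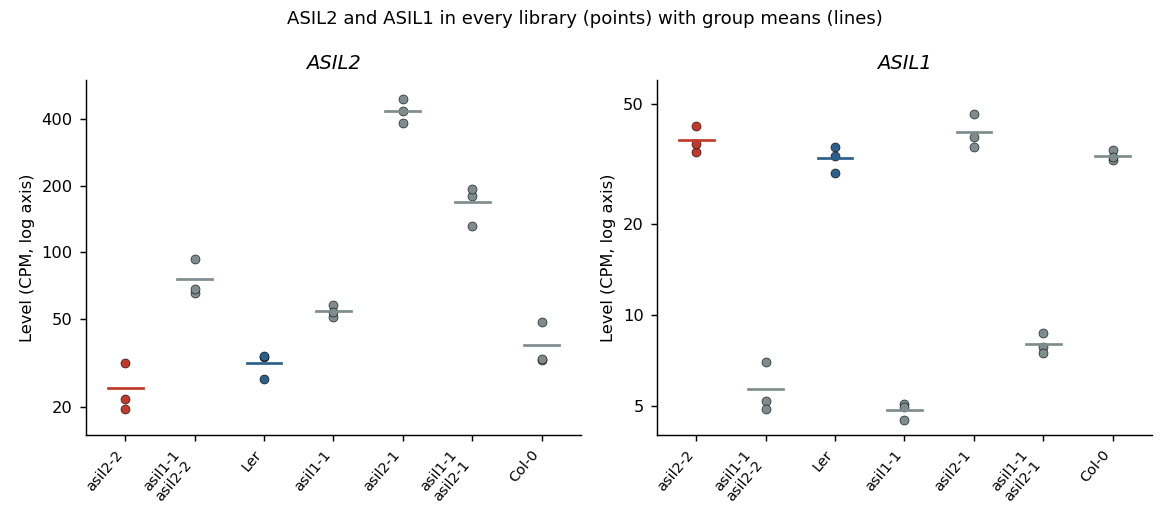
Levels of ASIL2 (left) and ASIL1 (right) in CPM on log axes, with 1 point per library and a line at each genotype's mean. ASIL2 averaged 24.4 CPM in asil2-2 and 31.6 CPM in Ler with overlapping libraries, while the asil2-1 libraries stood near 435 CPM; ASIL1 was low in the lines that carry asil1-1.

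ASIL1 (AT1G54060, chr1:20180610-20182374, plus strand) had 34.7, 36.7 and 42.3 CPM in asil2-2, against 29.4, 36.0 and 33.6 CPM in Ler, with a log2 fold change of 0.19 that was not called (edgeR quasi-likelihood, adjusted p = 0.368). Among the 14 tested trihelix genes 1 fell (0 without asil2-2 replicate 1 or 2 or Ler replicate 2), and the median log2 fold change was 0.02. Around ASIL2, 24 of the 442 genes within 1 Mb were called (5.43%), against 5.51% to 6.39% over whole chromosomes. Within 100 kb, 2 of 40 genes were called. AT3G14172, which encodes a GPI-anchored adhesin-like protein and lies next to ASIL2, had 44.5, 40.5 and 38.6 CPM in asil2-2, against 25.5, 19.9 and 23.0 CPM in Ler, with no overlap (edgeR quasi-likelihood, adjusted p = 0.00475). AT3G14220, a GDSL lipase gene, had 35.1, 25.2 and 33.7 CPM in asil2-2, against 43.0, 48.6 and 53.8 CPM in Ler, a call lost without asil2-2 replicate 2 (adjusted p = 0.0874) and without Ler replicate 3 (adjusted p = 0.0642).

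Promoters of 5 called genes are shown because they carry the motifs searched, the GT-box core for the ASIL factors and the C-repeat (CRT/DRE) core that the cold regulators of the CBF family bind. Each is the 250 bases before the RefSeq gene start in TAIR10.1, printed 5′ to 3′ on the gene's strand. Capitals mark only the motif named for that promoter. These are reference sequences, and the promoters of the asil2-2 and Ler plants themselves were not read. CBF2 (chr4:13016236-13016485, minus strand) and WRKY40 (chr1:30383311-30383560, plus strand) fell in asil2-2, whereas SPX1 (chr5:6802032-6802281, plus strand) rose, and each holds 1 GT-box, written GTGATT or, on the other strand, AATCAC:
CBF2: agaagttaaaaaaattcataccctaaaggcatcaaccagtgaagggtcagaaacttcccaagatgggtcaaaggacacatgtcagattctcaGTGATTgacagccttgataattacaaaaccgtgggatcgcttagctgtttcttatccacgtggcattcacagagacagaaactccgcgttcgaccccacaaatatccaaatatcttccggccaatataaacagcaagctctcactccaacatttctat
WRKY40: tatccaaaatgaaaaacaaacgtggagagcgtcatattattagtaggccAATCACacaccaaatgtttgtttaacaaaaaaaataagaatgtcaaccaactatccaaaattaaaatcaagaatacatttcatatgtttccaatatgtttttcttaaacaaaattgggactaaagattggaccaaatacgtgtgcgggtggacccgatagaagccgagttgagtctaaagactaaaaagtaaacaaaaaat
SPX1: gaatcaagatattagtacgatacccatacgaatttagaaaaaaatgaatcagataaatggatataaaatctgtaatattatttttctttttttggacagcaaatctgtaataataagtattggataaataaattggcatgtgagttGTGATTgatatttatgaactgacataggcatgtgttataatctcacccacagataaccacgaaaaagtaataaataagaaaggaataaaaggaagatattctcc
The match began 158 bases before the gene start in CBF2, 201 in WRKY40 and 104 in SPX1. The GT-box was present on either strand in 16.3% of the promoters of genes that rose and 16.0% of those that fell, against 15.7% over all tested nuclear genes. RD29A (chr5:21240467-21240716, plus strand) and COR15A (chr2:17712331-17712580, minus strand), both cold-induced genes that fell, hold 3 and 2 copies of the C-repeat core, CCGAC or, on the other strand, GTCGG:
RD29A: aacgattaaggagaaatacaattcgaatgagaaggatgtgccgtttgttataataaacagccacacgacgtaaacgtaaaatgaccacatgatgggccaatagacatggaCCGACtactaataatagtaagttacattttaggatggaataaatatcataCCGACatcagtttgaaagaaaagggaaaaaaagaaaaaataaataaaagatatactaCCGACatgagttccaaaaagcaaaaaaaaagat
COR15A: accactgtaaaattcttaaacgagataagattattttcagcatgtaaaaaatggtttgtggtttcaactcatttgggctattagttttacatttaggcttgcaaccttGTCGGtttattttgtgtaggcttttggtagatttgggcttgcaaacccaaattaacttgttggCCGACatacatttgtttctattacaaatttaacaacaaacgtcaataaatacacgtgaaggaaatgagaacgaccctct
This core was in 12.6% of the promoters of genes that rose, 16.5% of those that fell and 12.8% of all, and in 3 of the 12 cold genes. A further motif, the rapid stress response element CGCGTT, was in 2.83%, 3.72% and 2.72% of the same sets; the CBF2 promoter above holds 1, left in lower case. The C-repeat and rapid stress searches were added after values were seen, and a match is only a run of letters in this window.

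Genes of the rapid stress response were lower in asil2-2. Of 27 tested genes known to be induced within minutes by touch, wounding or elicitors, 16 fell and 0 rose, the median log2 fold change was -1.0 against -0.0005 over all genes, and 21 had all asil2-2 libraries below all Ler libraries. Those that fell include ethylene response factors (ERF5, ERF6, ERF104, ERF105 and ORA47), zinc finger and deadenylase genes (SZF1, SZF2, CAF1a), ubiquitin ligases (ATL2, ATL6, PUB22, PUB23), WRKY40, NAC062, the calmodulin-like TCH2 and the ethylene biosynthesis gene ACS6. The summed level of the 27 genes ran from 419 to 614 CPM in asil2-2, against 1007 to 1363 CPM in Ler. The count of those that fell was 10 without asil2-2 replicate 2 and 11 to 14 when another library was left out. At an unadjusted p under 0.05, 1 gene of the list was higher in asil2-2, and DESeq2 called 1 higher and 19 lower.

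ERF5, an ethylene response factor of plant immunity, had 1.60, 2.00 and 3.88 CPM in asil2-2, against 15.3, 19.5 and 35.0 CPM in Ler. Its log2 fold change was -3.21 ± 0.49 (SE; edgeR quasi-likelihood, adjusted p = 0.00145), and the highest asil2-2 library was well below the lowest Ler library. SZF1, a tandem zinc finger gene of salt and immune responses, had 39.3, 45.3 and 52.4 CPM in asil2-2, against 137, 171 and 220 CPM in Ler. The asil2-2 values were close together and none came near the Ler range (log2 fold change -1.95 ± 0.26). ACS6, an enzyme that makes the ethylene precursor, had 10.9, 11.7 and 13.3 CPM in asil2-2, against 50.8, 45.9 and 66.6 CPM in Ler. ACS6 fell by 2.18 on the log2 scale (edgeR quasi-likelihood, adjusted p = 9.29e-05).

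WRKY40, a repressor of defence genes, stood at 5.81, 5.19 and 8.70 CPM in asil2-2, against 17.1, 28.6 and 39.6 CPM in Ler, without overlap. WRKY11, a related negative regulator of basal resistance, stood at 18.6, 19.4 and 22.4 CPM in asil2-2, against 45.8, 47.0 and 59.1 CPM in Ler. Both fell, WRKY40 by 2.14 and WRKY11 by 1.33 on the log2 scale, and reads of WRKY40 cannot be told apart from those of the overlapping locus AT1G80850 where the genes share sequence. DIC2, a mitochondrial dicarboxylate carrier gene, showed a larger difference, with 5.08, 4.58 and 13.1 CPM in asil2-2, against 59.8, 83.8 and 114 CPM in Ler (log2 fold change -3.50 ± 0.59). Across families, 8 of 54 WRKY genes and 6 of 22 ERF and DREB genes fell, beside 3.57% of all genes. Upward, beside 2.39% of all genes, 3 WRKY genes and 0 ERF and DREB genes rose (also 0 by DESeq2 and at an unadjusted p under 0.05). Without asil2-2 replicate 2 the genes that fell numbered 4 and 3, the WRKY genes that fell numbered 5 without Ler replicate 3, and the WRKY genes that rose numbered 1 without Ler replicate 2 or 3.

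Cold genes had the lowest median of the 30 lists examined. All 12 had negative log2 fold changes, 8 fell, and the median was -1.69; 11 had asil2-2 libraries all below those of Ler. The summed level ran from 319 to 410 CPM in asil2-2, against 638 to 845 CPM in Ler. The 3 CBF genes, tandem copies on chromosome 4 whose products switch on the cold regulon, were at low levels throughout. CBF1 had 0.0726, 0.123 and 0.147 CPM in asil2-2, against 0.934, 2.26 and 3.58 CPM in Ler (log2 fold change -4.21 ± 0.71). CBF2 had 0.944, 0.532 and 0.541 CPM in asil2-2, against 4.2, 4.81 and 5.89 CPM in Ler, and CBF3 had 0.508, 0.532 and 0.0491 CPM in asil2-2, against 2.49, 2.98 and 3.21 CPM in Ler. None of the 3 overlapped between genotypes, and all 3 fell; because the copies are near-identical, the division of reads among them is uncertain.

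Of the 7 listed genes that the CBF factors are known to activate, COR47, ERD10, RD29A and COR15A fell, whereas COR15B (log2 fold change -1.21), KIN1 (-0.97) and KIN2 (-1.06) were not called. COR47, a dehydrin that protects membranes in cold and drought, had 278, 232 and 292 CPM in asil2-2, against 403, 496 and 523 CPM in Ler. COR47 fell by 0.83 on the log2 scale (edgeR quasi-likelihood, adjusted p = 0.000282), and its groups did not overlap. RD29A had 28.5, 8.71 and 12.5 CPM in asil2-2, against 41.6, 54.8 and 70.0 CPM in Ler, and COR15A, a chloroplast cryoprotectant, had 2.83, 1.02 and 1.72 CPM in asil2-2, against 6.54, 4.99 and 4.92 CPM in Ler. RD29A and COR15A were chosen after their values were seen; RD29A was not called in the 6 libraries alone (adjusted p = 0.12) nor without asil2-2 replicate 2 (0.111) or 3 (0.0634) or Ler replicate 2 (0.0656) or 3 (0.0864). COR15A was likewise lost when any library but asil2-2 replicate 1 was left out (adjusted p from 0.0832 to 0.208), and with all libraries it was lost with library size alone (0.0554), no filter (0.0528) or the length correction (0.0529). The count of cold genes that fell was 4 without asil2-2 replicate 2, Ler replicate 2 or Ler replicate 3.

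**Figure D2:**
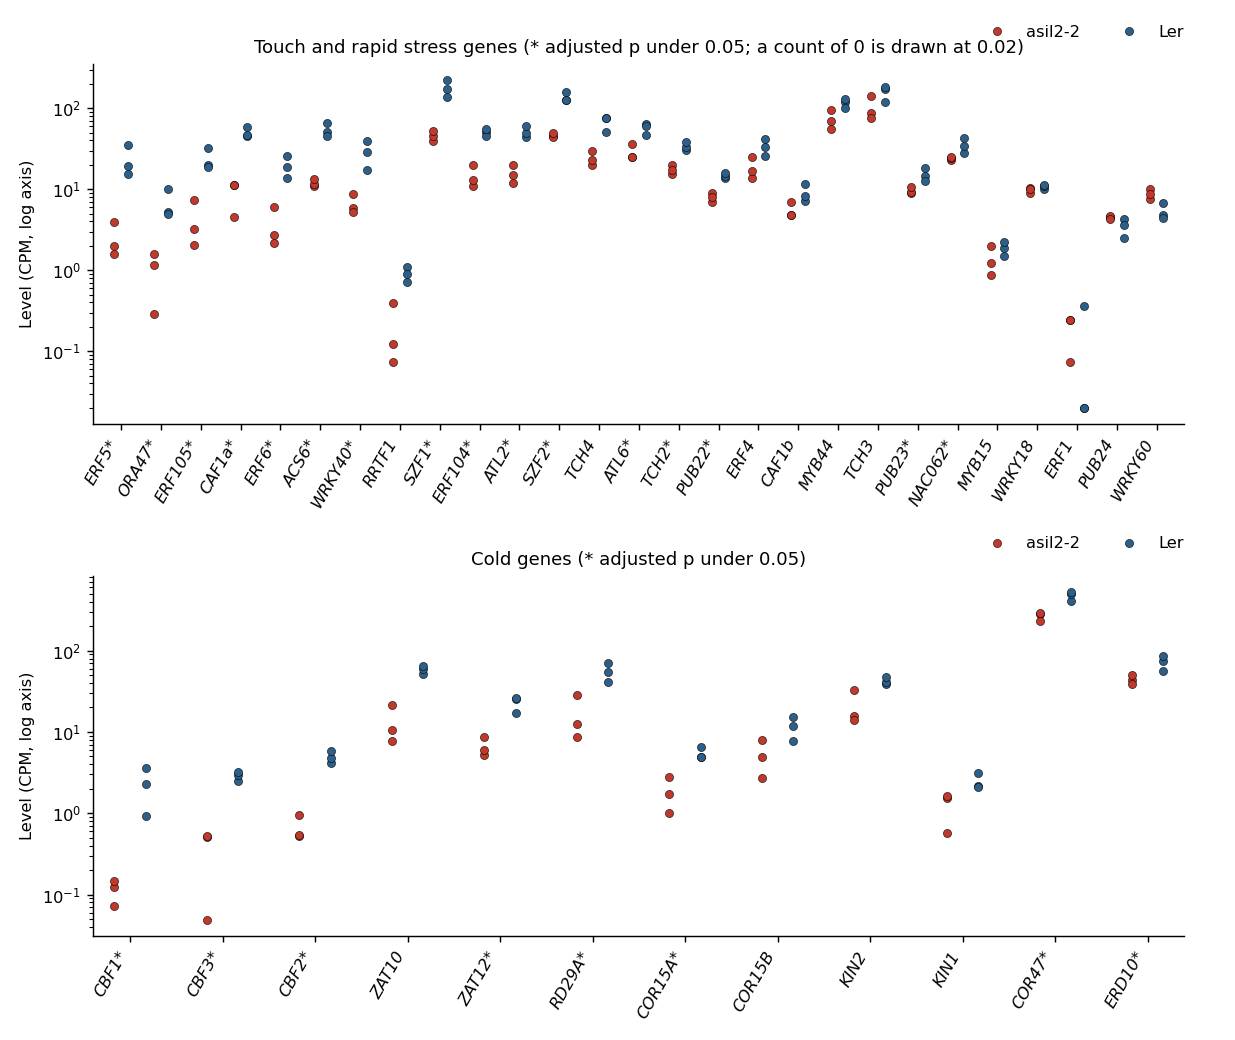
Levels in CPM on log axes of the 27 rapid stress genes (top) and 12 cold genes (bottom), ordered by log2 fold change, with asil2-2 libraries in red to the left of Ler libraries in blue. Asterisks mark the 16 and 8 genes called in edgeR's quasi-likelihood test; in 21 and 11 genes every asil2-2 library lies below every Ler library.

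In the abscisic acid list, 5 of 25 genes fell and 0 rose, with a median log2 fold change of -0.11 (-0.04 without asil2-2 replicate 1 and -0.24 without Ler replicate 2). The genes that fell act at both ends of the hormone's life and in its feedback. NCED3, the rate-limiting step of stress-induced abscisic acid synthesis, had 3.56, 4.74 and 5.99 CPM in asil2-2, against 20.2, 25 and 42.2 CPM in Ler (log2 fold change -2.61 ± 0.40). CYP707A3, which breaks abscisic acid down, had 1.38, 1.14 and 1.67 CPM in asil2-2, against 10.4, 11.1 and 17.37 CPM in Ler. CYP707A3 fell by 3.22 ± 0.27 on the log2 scale (SE; edgeR quasi-likelihood, adjusted p = 5.12e-07), with the asil2-2 values all under 2 CPM. AHG3, a phosphatase that dampens abscisic acid signalling, had 45.0, 56.6 and 54.4 CPM in asil2-2, against 86.9, 81.5 and 110 CPM in Ler, and the phosphatase genes ABI1 and HAI1 completed the set.

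More salicylate defence genes rose than fell. Of 29 tested, 6 rose (WRKY54, WRKY38, SARD1, ACD6, PCC1 and NIMIN1) and 1 fell (WRKY53), beside 2.39% and 3.57% of all genes. The median log2 fold change was 0.90. In 13 of the 29, all asil2-2 libraries lay above all Ler libraries, beside 12.3% of all genes. ACD6, an ankyrin repeat membrane protein that promotes salicylate accumulation and is known for large natural variation between accessions, had 73.3, 18.1 and 40.1 CPM in asil2-2, against 3.43, 2.44 and 2.83 CPM in Ler. The log2 fold change was 3.97 ± 0.74 (SE; edgeR quasi-likelihood, adjusted p = 0.00602), and the asil2-2 libraries varied widely among themselves, but each stood above all Ler libraries. PCC1, induced by pathogens and the clock, had 32.0, 13.3 and 38.6 CPM in asil2-2, against 2.34, 1.36 and 1.34 CPM in Ler. asil2-2 replicate 2 was the lowest of its group for both genes.

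ANK and ECS1, which are not on the salicylate list, were named because they were among the largest or firmest rises. ANK, an ankyrin gene induced by salicylate, had 38.9, 17.62 and 26.3 CPM in asil2-2, against 1.40, 0.790 and 0.224 CPM in Ler, and ECS1, a secreted protein linked to resistance to Xanthomonas, had 149, 67.4 and 164 CPM in asil2-2, against 25.1, 15.3 and 11.3 CPM in Ler. ANK rose by 5.24 ± 0.81 and ECS1 by 2.93 ± 0.42 on the log2 scale (SE; edgeR quasi-likelihood, adjusted p = 0.00165 and 0.000927), although ANK overlaps AT5G54600. WRKY54, a regulator acting with WRKY70, had 13.4, 8.83 and 10.3 CPM in asil2-2, against 3.43, 3.16 and 1.42 CPM in Ler. WRKY38, another WRKY of basal defence, had 1.74, 0.532 and 0.688 CPM in asil2-2 and no count in Ler, so it was at least 13.8-fold higher in asil2-2 if 3 counts are allowed over the Ler group, a bound that also lies above the median of the list.

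WRKY53, a senescence and defence regulator, had 2.54, 3.39 and 3.19 CPM in asil2-2, against 8.41, 9.08 and 13.9 CPM in Ler. It was the 1 salicylate gene that fell, by 1.77 on the log2 scale, a call lost without asil2-2 replicate 2 (adjusted p = 0.0510) and without Ler replicate 3 (0.0654). Standard markers of an active salicylate response had positive values that were not called, with log2 fold changes of 1.79 for PR1, 0.99 for PR2 and 0.89 for PR5. The number of salicylate genes that rose was 3 without asil2-2 replicate 1, 1 without Ler replicate 2 and 2 without Ler replicate 3. Their median log2 fold change was 0.41 without asil2-2 replicate 1 and 0.50 in the 6 libraries alone (0.46 with the replicate block there). PCC1 was lost in these same fits (adjusted p = 0.0563, 0.131 and 0.0936), as was WRKY54 (0.0524, 0.0558 and 0.0795), and WRKY38 was lost without Ler replicate 2 (0.0747).

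**Figure D3:**
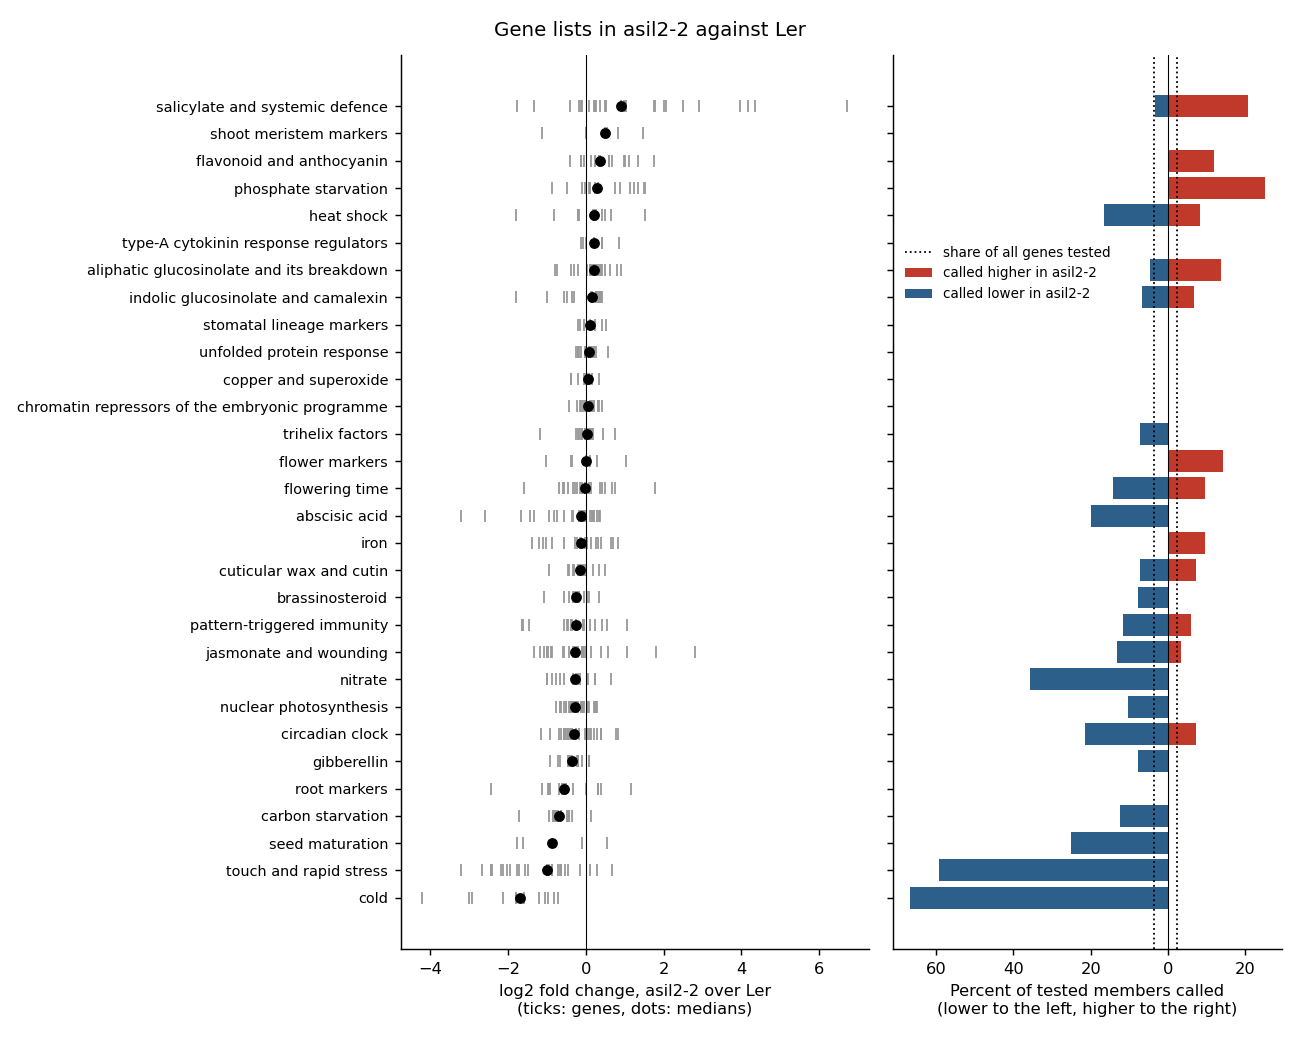
Left, log2 fold changes of asil2-2 over Ler for the tested members of 30 gene lists (grey ticks) with each list's median (black dots). Right, the percent of tested members called lower (blue, to the left) or higher (red, to the right), beside the shares over all genes (dotted lines at 3.57% lower and 2.39% higher); cold and rapid stress genes extend farthest to the left.

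Phosphate starvation genes included 4 that rose of 16 tested and 0 that fell, with a median log2 fold change of 0.28 (0.54 in the 6 libraries alone). PAP17, an acid phosphatase, had 37.3, 42.5 and 42.6 CPM in asil2-2, against 17.8, 16.4 and 14.3 CPM in Ler, and it overlaps AT3G17800. SPX1, a phosphate sensor that restrains the starvation response, had 20.3, 21.9 and 18.7 CPM in asil2-2, against 8.56, 8.12 and 9.24 CPM in Ler. Neither gene overlapped between genotypes, and SPX1 rose by 1.24 ± 0.21 on the log2 scale (SE; edgeR quasi-likelihood, adjusted p = 0.00111). The phosphate transporter PHT1;4 and the non-coding RNA AT4 were the other genes that rose. The count was 2 without asil2-2 replicate 1, Ler replicate 2 or Ler replicate 3.

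In nitrate assimilation and sensing, 5 of 14 genes fell and 0 rose, with a median of -0.28. They were the nitrate reductase NIA1, the sirohaem enzyme UPM1, and the 3 related repressors LBD37, LBD38 and LBD39. LBD37 had 128, 115 and 184 CPM in asil2-2, against 229, 268 and 283 CPM in Ler, a fall of 0.87 on the log2 scale without overlap. The count of nitrate genes that fell was 3 without asil2-2 replicate 1, 2 without asil2-2 replicate 2, 3 without Ler replicate 2 and 1 without Ler replicate 3.

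Clock genes moved in both directions. Of 28 tested, CCA1 and LHY, which peak at dawn, rose, and 6 genes fell, among them PRR5, GI and FKF1, which peak later in the day. PRR5, a repressor of CCA1, had 35.4, 23.1 and 28.0 CPM in asil2-2, against 65.6, 60.3 and 65.9 CPM in Ler, with no overlap and a log2 fold change of -1.15 ± 0.15 (SE; edgeR quasi-likelihood, adjusted p = 8.86e-05). CCA1 had 56.9, 98.8 and 87.3 CPM in asil2-2, against 66.2, 40.5 and 38.1 CPM in Ler, and asil2-2 replicate 1 lay within the Ler range. CCA1 was not called in the 6 libraries alone (adjusted p = 0.158) nor without asil2-2 replicate 2 (0.121), Ler replicate 2 (0.115) or Ler replicate 3 (0.102). The genes that fell numbered 1 without asil2-2 replicate 2 and 1 without Ler replicate 3; CCA1 and LHY were 0 of 2 in the fits without asil2-2 replicate 2, Ler replicate 2 or Ler replicate 3, and 1 of 2 without asil2-2 replicate 3. The hour of collection is not in the labels, so a difference in hour between the genotypes was not tested.

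In the flowering list, 2 of 21 genes rose and 3 fell. FLC, the main repressor of flowering and known to carry a weak allele in Ler, had 2.25, 2.86 and 2.75 CPM in asil2-2, against 0.623, 0.826 and 0.746 CPM in Ler. FLM, a related repressor, had 20.9, 21.9 and 19.95 CPM in asil2-2, against 11.5, 12.5 and 13.0 CPM in Ler. SOC1, a promoter of flowering that FLC represses, had 82.9, 89.5 and 92.5 CPM in asil2-2, against 127, 130 and 134 CPM in Ler. All 3 were separated without overlap, FLC and FLM upward and SOC1 downward by 0.56 on the log2 scale (edgeR quasi-likelihood, adjusted p = 0.00178). The FLC call was lost without Ler replicate 2 (adjusted p = 0.0581) and without Ler replicate 3 (0.0517), and the FLM call was lost after a correction for gene length (0.143). Those that fell numbered 1 without asil2-2 replicate 1 or 2 or Ler replicate 2 or 3, and those that rose 1 without Ler replicate 2 or 3.

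Among jasmonate and wounding genes 1 of 30 rose and 4 fell, beside 2.39% and 3.57% of all genes. The 3 MYC factors, which drive jasmonate responses together, did not move alike. MYC3 had 68.8, 67.8 and 64.9 CPM in asil2-2, against 143, 152 and 160 CPM in Ler, and MYC2 had 59.8, 63.5 and 87.6 CPM in asil2-2, against 129, 117 and 148 CPM in Ler. MYC4 had 31.5, 40.2 and 31.4 CPM in asil2-2, against 25.2, 22.1 and 22.7 CPM in Ler. MYC3 and MYC2 fell and MYC4 rose by 0.57 on the log2 scale, with no overlap in any of the 3; these directions held under every scaling. MYC2, which overlaps AT1G32630, was lost without asil2-2 replicate 2 (adjusted p = 0.0517), and MYC4 without asil2-2 replicate 2 (0.0866) or Ler replicate 2 (0.0594). The jasmonate genes that fell numbered 2 without asil2-2 replicate 1, 1 without asil2-2 replicate 2, and 2 without Ler replicate 2 or Ler replicate 3.

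MYC3 lies in a run of neighbours on chromosome 5 that were lower together in asil2-2, chosen for description after the values were seen, apart from MYC3 and AGD9. Of the 12 tested genes from AT5G46680 to AT5G46800, 6 fell. AT5G46730, a glycine-rich protein gene (chr5:18963977-18965222, plus strand), had 181, 222 and 262 CPM in asil2-2, against 1056, 1583 and 1398 CPM in Ler, a log2 fold change of -2.60 ± 0.17 (SE; edgeR quasi-likelihood, adjusted p = 1.42e-08). AT5G46780, which encodes a VQ motif protein, had 20.5, 22.8 and 27.1 CPM in asil2-2, against 55.1, 52.8 and 64.3 CPM in Ler. AGD9, a regulator of ARF GTPases, had 43.5, 52.2 and 43.7 CPM in asil2-2, against 76.5, 84.8 and 82.6 CPM in Ler. AT5G46710 and the ubiquitin protease UBP21 were the others that fell, and TRN2, AT5G46720, PYL1 and BOU, which lie between or beside them, were not called.

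MYC3 and AT5G46730 had lower means in asil2-2, asil1-1 asil2-2 and Col-0 than in Ler. MYC3 averaged 67.2 ± 2.04 CPM in asil2-2, 70.4 ± 12.1 CPM in asil1-1 asil2-2 and 152 ± 8.79 CPM in Ler, beside 66.1 ± 4.01 CPM in Col-0 (SD, n = 3 each). AT5G46730 averaged 222 ± 40.5 CPM in asil2-2, 143 ± 18.3 CPM in asil1-1 asil2-2 and 1346 ± 268 CPM in Ler, beside 136 ± 6.33 CPM in Col-0. AT5G46780 did not follow the same order in every genotype, with 23.5 ± 3.38 CPM in asil2-2, 31.7 ± 4.34 CPM in asil1-1 asil2-2 and 57.4 ± 6.07 CPM in Ler, beside 49.2 ± 5.37 CPM in asil2-1 and 23.7 ± 0.965 CPM in Col-0. Between Ler and Col-0 themselves 36.1% of genes were called. Over all asil2-2 calls, 518 of the 699 genes that fell and 300 of the 468 that rose had an asil2-2 mean nearer to Col-0 than to Ler. The Ler values enter both the call and this distance, and the same share over all genes tested was not taken. The counts are therefore only a description.

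**Figure D4:**
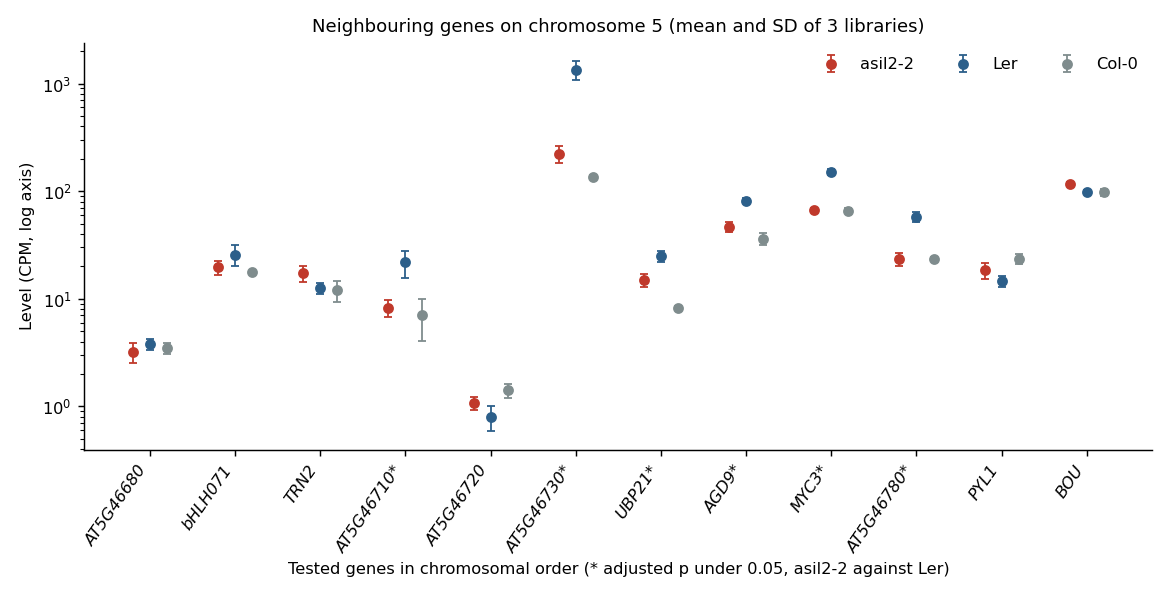
Mean level (CPM, log axis, bars SD of 3 libraries) of 12 neighbouring tested genes on chromosome 5 in asil2-2 (red), Ler (blue) and Col-0 (grey). The 6 genes with asterisks fell in asil2-2, and for them Ler stands above both other genotypes.

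A few genes were on in asil2-2 and at or near 0 in Ler. AT5G03090 (chr5:725281-725962, plus strand), annotated as an Mto 1 responding down protein, had 16.8, 18.6 and 16.0 CPM in asil2-2 and no count in Ler, so it was at least 275-fold higher in asil2-2 with 3 counts allowed over the Ler group. It was at 0 CPM in asil1-1 asil2-2 as well, and at 0.152 ± 0.103 CPM in asil2-1 and 0.0991 ± 0.0948 CPM in Col-0. AT1G36920 had 6.03, 6.87 and 5.01 CPM in asil2-2, against 0, 0 and 0.0746 CPM in Ler, and was the only gene with at least 10 counts in every asil2-2 library and at most 3 in all libraries of each other genotype. AT3G30200, a transposase gene, had 2.18, 3.07 and 2.36 CPM in asil2-2 and no count in Ler, at least 41.5-fold higher in asil2-2. DESeq2 gave it no adjusted p. In asil1-1 asil2-2 AT3G30200 averaged 0.468 ± 0.0938 CPM and was also called higher than in Ler (edgeR quasi-likelihood, adjusted p = 0.00105). These 3 genes were chosen after their values were seen. No gene met the same rule in the other direction, with counts in Ler only.

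Among genes of known function with the largest or firmest rises, 2A6, a dioxygenase gene, had 35.8, 38.7 and 39.4 CPM in asil2-2, against 14.6, 13.3 and 15.6 CPM in Ler. The replicates were tight, and 2A6 rose by 1.40 ± 0.10 on the log2 scale (SE; edgeR quasi-likelihood, adjusted p = 2.45e-08), although it overlaps other loci. VLN5, an actin-bundling villin known from pollen, had 4.21, 4.01 and 4.08 CPM in asil2-2, against 0.156, 0.287 and 0.671 CPM in Ler. HEI10, which controls meiotic crossovers, had 3.70, 3.15 and 3.98 CPM in asil2-2, against 0.779, 0.610 and 0.522 CPM in Ler, and DML3, a DNA demethylase, had 5.81, 7.48 and 6.04 CPM in asil2-2, against 2.65, 2.30 and 3.06 CPM in Ler. HEI10 and DML3 were near Ler in asil1-1 asil2-2, at 0.837 ± 0.474 and 3.06 ± 0.315 CPM (SD, n = 3 each). HEI10 overlaps other annotated loci.

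Secondary metabolism and hormone genes moved in small numbers. In the aliphatic glucosinolate list 3 of 22 genes rose and 1 fell. SOT17, a sulfotransferase of glucosinolate synthesis, had 39.4, 42.0 and 38.3 CPM in asil2-2, against 24.4, 23.7 and 20.9 CPM in Ler, and MAM3, a chain elongation enzyme, had 147, 148 and 155 CPM in asil2-2, against 98.9, 96.9 and 98.9 CPM in Ler. TGG1, the myrosinase that breaks glucosinolates down, fell to 1845, 1640 and 1794 CPM in asil2-2, against 2891, 2542 and 3341 CPM in Ler. UGT75C1, an anthocyanin glucosyltransferase, was 1 of 2 flavonoid genes that rose of 17, with 7.62, 6.05 and 5.99 CPM in asil2-2, against 4.52, 2.48 and 1.34 CPM in Ler; it overlaps AT4G14100. NAS1, which makes the iron chelator nicotianamine, was 1 of 2 iron genes that rose of 21, with 60.3, 60.6 and 69.6 CPM in asil2-2, against 50.9, 39.9 and 33.0 CPM in Ler. IAA2, an auxin-induced repressor, had 40.9, 46.8 and 46.2 CPM in asil2-2, against 76.6, 85.8 and 98.8 CPM in Ler, and 4 of 18 Aux/IAA genes fell (2 without asil2-2 replicate 1, and 1 without asil2-2 replicate 2, Ler replicate 2 or Ler replicate 3). The iron genes that rose numbered 1 when any library but asil2-2 replicate 3 was left out.

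Nuclear photosynthesis genes had a median log2 fold change of -0.28, with 31 of 39 values negative and 4 called lower. LHCB1.3, a light-harvesting protein of photosystem II, had 4287, 4164 and 5783 CPM in asil2-2, against 6007, 7742 and 8483 CPM in Ler, and near-identical LHCB1 copies make its share of reads uncertain. The count of photosynthesis genes that fell was 0 without asil2-2 replicate 1 or 2 or Ler replicate 2 or 3, and 12 without asil2-2 replicate 3, where the median was -0.46; LHCB1.3 was lost in the first 4 of these fits (adjusted p from 0.0676 to 0.100). These genes are short, with a median exonic length of 1271 nt, and length moved with the comparison. Over 19485 genes the rank correlation of log2 fold change with exonic length was 0.25. Genes longer than 4000 nt had a median log2 fold change of 0.26, and genes up to 800 nt one of -0.05. The length class just above 800 nt, where the photosynthesis median lies, had one of -0.08. Calls moved with length too. Of genes longer than 4000 nt 6.74% rose and 0.58% fell, against 1.38% and 4.34% in the class just above 800 nt. The gap between long and short genes was 0.15, 0.36 and -0.08 in the asil2-2 libraries, against 0.12, -0.47 and -0.07 in the Ler libraries, so asil2-2 replicate 2 and Ler replicate 2 stood farthest apart. The part of gene length in the single results was not tested beyond the length correction.

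The seed maturation genes that ASIL factors are known to repress were mostly too low to test. Of 25 on the list 19 were in the files and 4 had enough counts to test; 0 rose and 1 fell. DOG1, which sets seed dormancy, had 0.290, 0.450 and 0.688 CPM in asil2-2, against 1.40, 1.51 and 1.64 CPM in Ler, a difference of -1.63 ± 0.38 on the log2 scale. It was lost without asil2-2 replicate 1 (adjusted p = 0.0562) or 2 (0.0733) and without Ler replicate 2 (0.0544) or 3 (0.0504). None of 16 chromatin repressors of the embryonic programme was called in edgeR's quasi-likelihood test or in DESeq2, 2 were higher and 1 lower at an unadjusted p under 0.05, and their median log2 fold change was 0.06.

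Markers of other organs and cell types gave 1 call. The summed level of the 16 root markers tested of 22, among them the Casparian strip genes CASP1 to CASP5 and the auxin transporter PIN2, ran from 99.0 to 114 CPM in asil2-2, against 104 to 133 CPM in Ler, with a median log2 fold change of -0.57 and 0 calls by edgeR, by DESeq2 or at an unadjusted p under 0.05. That median was -1.19 without asil2-2 replicate 1, -0.21 without asil2-2 replicate 3, -0.29 without Ler replicate 1 and -0.89 without Ler replicate 3, and the 6 libraries alone with the replicate block called 2 root markers lower. The 7 shoot meristem markers summed to 132 to 139 CPM in asil2-2, against 114 to 143 CPM in Ler, and the 7 stomatal markers to 104 to 116 CPM in asil2-2, against 94.7 to 108 CPM in Ler. The 7 flower markers summed to 26.1 to 35.4 CPM in asil2-2, against 29.9 to 35.6 CPM in Ler. SEP1, a floral organ gene, was the 1 marker that rose, with 13.2, 6.38 and 7.47 CPM in asil2-2, against 5.45, 4.09 and 3.88 CPM in Ler. It was not called in the 6 libraries alone (adjusted p = 0.0590) nor without asil2-2 replicate 1 (0.247), Ler replicate 2 (0.171) or Ler replicate 3 (0.149).

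The other lists held few calls, beside 2.39% risen and 3.57% fallen over all genes. In pattern-triggered immunity 1 of 17 genes rose and 2 fell, among heat shock genes 1 of 12 rose and 2 fell, and indolic glucosinolate and wax genes had 1 in each direction of 15 and of 14. The immunity gene that rose was lost without asil2-2 replicate 1 or 2 or Ler replicate 2 or 3, and those that fell numbered 1 without asil2-2 replicate 2 or Ler replicate 3. Heat shock genes that rose numbered 0 without asil2-2 replicate 1 or 2 or Ler replicate 1 or 3, and those that fell 0 without asil2-2 replicate 1 or 2 or Ler replicate 2 or 3 and 1 without asil2-2 replicate 3. For indolic glucosinolates the rise was lost without asil2-2 replicate 3 or Ler replicate 1 and the fall without asil2-2 replicate 1 or 2 or Ler replicate 2 or 3. For wax the rise was lost without asil2-2 replicate 1 or 2 or Ler replicate 2 or 3 and the fall without Ler replicate 3. Carbon starvation genes had a median log2 fold change of -0.69, with 15 of 16 values negative and 2 called lower; those that fell numbered 0 without asil2-2 replicate 1 or 2 or Ler replicate 2 or 3, 4 without asil2-2 replicate 3 and 5 without Ler replicate 1. In each of the brassinosteroid and gibberellin lists 1 of 13 genes fell; the brassinosteroid call was lost whichever library was left out, and the gibberellin call without asil2-2 replicate 1 or 2 or Ler replicate 2 or 3. The unfolded protein response (15 genes), copper (11) and cytokinin regulator (8) lists had 0 calls by edgeR or DESeq2, with 2, 1 and 0 genes at an unadjusted p under 0.05.

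Transcripts of the organelles leaned upward in asil2-2. All 29 tested mitochondrial genes had positive log2 fold changes, with a median of 0.98, and 5 were called; among 56 chloroplast genes 3 rose, 0 fell and the median was 0.40. The mitochondrial calls numbered 1 without asil2-2 replicate 2 and 2 without asil2-2 replicate 3 or any 1 Ler library, and the chloroplast calls 5 without Ler replicate 1 and 1 without Ler replicate 2 or 3. ATMG01080, a mitochondrial gene, had 1.31, 1.14 and 3.10 CPM in asil2-2, against 0.156, 0.503 and 0.447 CPM in Ler, and was lost without asil2-2 replicate 3 (adjusted p = 0.0511). Most organellar transcripts lack a poly(A) tail, so their share in libraries selected for poly(A) also depends on the selection, whose part was not tested.

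asil2-1 against Col-0 compares none of these 6 libraries, which enter it only through the shared filter, scaling and estimate of spread. It called 8081 genes, 41.3% of those tested. Of all genes tested, 21.9% were called higher there and 19.3% lower. The pooled share called in the same direction below is near these, but genes that rose and genes that fell differed. Of the 1167 asil2-2 calls, 249 were called in the same direction in asil2-1 (21.3% of the asil2-2 calls and 3.08% of the asil2-1 calls) and 362 in the opposite direction (31.0% and 4.48%). Of the 468 genes that rose in asil2-2, 148 rose and 65 fell in asil2-1, and 255 were not called there. Of the 699 genes that fell in asil2-2, 101 fell and 297 rose in asil2-1, and 301 were not called there. The difference between the effects, tested for every gene as a contrast of both comparisons, was called for 671 of the 1167 genes and for 22.7% of all genes. The asil2-2 and Ler values enter both the call and this contrast. The higher share among called genes is therefore built in at least in part and is only a description.

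The rapid stress genes were among those that went opposite ways. Their median log2 fold change was -1.0 in asil2-2 over Ler and 2.1 in asil2-1 over Col-0, where 23 of the 27 rose and 0 fell, and the difference was called for 24. SZF1 averaged 45.7 ± 6.55 CPM in asil2-2 and 176 ± 41.9 CPM in Ler, beside 625 ± 115 CPM in asil2-1 and 58.7 ± 17.8 CPM in Col-0 (SD, n = 3 each). CYP707A3 averaged 1.40 ± 0.263 CPM in asil2-2 and 13.0 ± 3.84 CPM in Ler, beside 57.0 ± 8.88 CPM in asil2-1 and 2.89 ± 0.420 CPM in Col-0. For these genes Ler lay above Col-0, and the asil2-2 level was close to that of Col-0 or below it. Cold genes showed no such opposition as a list, with a median of 0.04 in asil2-1 over Col-0, 3 called higher and 2 lower.

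asil1-1 asil2-2 shares both the asil2-2 allele and the Ler libraries with the comparison, so its values stand beside it only as a description; 28.3% of genes were called there and 14.8% were called higher. Rapid stress genes had a median log2 fold change of -0.51 and cold genes -2.38 in asil1-1 asil2-2 over the same Ler libraries, beside -1.0 and -1.69 in asil2-2. Salicylate genes had a median of 1.11 in the double mutant and 0.90 in asil2-2. ACD6 averaged 43.8 ± 27.8 CPM in asil2-2, 193 ± 61.9 CPM in asil1-1 asil2-2 and 2.90 ± 0.495 CPM in Ler, beside 125 ± 65.4 CPM in Col-0 (SD, n = 3 each). FLC averaged 2.62 ± 0.326 CPM in asil2-2, 3.90 ± 1.65 CPM in asil1-1 asil2-2 and 0.731 ± 0.102 CPM in Ler, beside 3.43 ± 2.2 CPM in Col-0. The Col-0 libraries varied widely in both genes, and asil1-1 asil2-2 is of mixed ecotype.

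**Figure D5:**
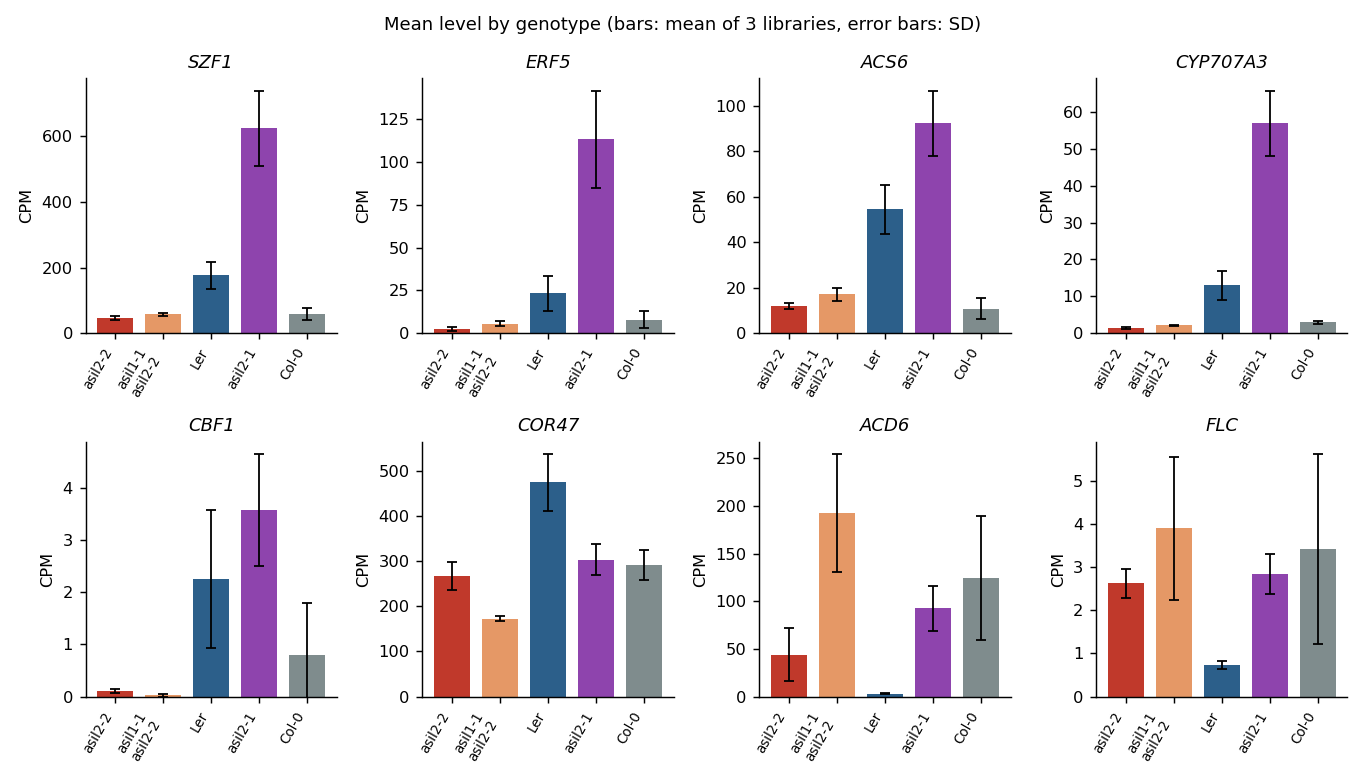
Mean level (CPM, bars from 0, error bars SD of 3 libraries, cut at 0) of 8 genes in asil2-2, asil1-1 asil2-2, Ler, asil2-1 and Col-0. SZF1, ERF5, ACS6 and CYP707A3 are low in both lines with asil2-2 and in Col-0, intermediate in Ler and highest in asil2-1, whereas ACD6 and FLC are lowest in Ler.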

How the data were processed

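Gene counts of polyadenylated RNA were deposited by the authors as raw counts, 1 file per library, for 24100 loci over 21 libraries. The submitters' processing notes name Bowtie 0.12.7, edgeR 3.0.8 and TAIR10; the sources used here do not give read filters, strand or the treatment of reads with several matches. Symbols, neighbours and promoters came from RefSeq's TAIR10.1, which holds 23867 of the loci. Genes were filtered with filterByExpr (4511 removed), scaled by the trimmed mean of M values and fitted with edgeR 4.0.16 (R 4.3.3, robust quasi-likelihood, 7 group means over 21 libraries, 14 residual degrees of freedom, Benjamini-Hochberg threshold 0.05). All groups entered the fit so that they share 1 estimate of spread. Data were also simulated for asil2-2 against Ler over 19299 genes, with all groups otherwise given the same mean. In them 85% of 100 genes changed 2-fold and 97% of 100 changed 4-fold were recovered. The changed genes all averaged over 1 CPM, so recovery of genes below that level was not tested. Alternatives were DESeq2 1.42.0, other scalings and filters, a length correction, a replicate block and fits without each of the 6 libraries in turn. Named genes were ASIL2, ASIL1, the 10 largest and 10 firmest changes per direction, up to 4 members per list, and called genes near ASIL2; the text gives part of these. Members and lists were chosen with earlier results of these data known. P-values measure the spread between libraries of the same group, estimated together over the 7 groups of 3 libraries and not from asil2-2 and Ler alone. With the 6 libraries alone, 737 of the 1167 calls were kept. A floor of 3 counts is 0.0512 CPM over the asil2-2 group and 0.0629 CPM over the Ler group, and covers counting error only.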

Additional observations from a re-analysis of the deposited data

Results flagged for a closer look

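The genes below are given because the effect of asil2-2 over Ler differed from the effect of asil2-1 over Col-0 in a test of that difference (edgeR quasi-likelihood contrast over all 21 libraries, adjusted p under 0.05). Of the 58 genes examined singly, most of them chosen for their change in asil2-2, 50 met this, beside 22.7% of all genes, and 24 of them had a lower level in asil2-2 than in Ler and a higher one in asil2-1 than in Col-0. Each value is the log2 fold change of asil2-2 over Ler minus that of asil2-1 over Col-0, so a negative value means a lower effect in asil2-2. For ASIL2 itself the difference was -3.90, its transcript being far above Col-0 in asil2-1 and not above Ler in asil2-2. In the rapid stress group and related genes the difference was -7.05 for ERF5, -5.28 for ACS6, -4.15 for ATL2, -5.36 for SZF1, -6.62 for WRKY40, -3.26 for WRKY11, -6.18 for WRKY53 and -7.08 for DIC2. Among cold and abscisic acid genes it was -6.39 for CBF1, -3.90 for CBF2, -2.65 for CBF3, -0.89 for COR47, -1.90 for RD29A, -7.52 for CYP707A3, -4.85 for NCED3 and -1.38 for AHG3. For genes linked to salicylate it was 4.40 for ACD6, 7.96 for PCC1, 6.65 for ANK, 4.95 for ECS1, 2.52 for WRKY54 and 8.55 for WRKY38; the WRKY38 value depends on the prior count, since Ler has no count. Clock, nitrate and flowering genes gave -2.10 for PRR5, 1.1 for CCA1, -0.95 for LBD37, 2.03 for FLC, 0.87 for FLM, -1.11 for SOC1 and 1.78 for SEP1. Jasmonate factors and the neighbours of MYC3 gave -1.35 for MYC3, -2.24 for MYC2, 0.85 for MYC4, -0.99 for AGD9, -1.38 for AT5G46730 and -2.34 for AT5G46780. Metabolic, hormone and seed genes gave 1.74 for SOT17, 1.96 for MAM3, 2.37 for UGT75C1, -0.99 for IAA2, 1.29 for NAS1 and -1.49 for DOG1. The remaining genes gave 2.48 for VLN5, 2.51 for HEI10, 1.61 for 2A6, 0.95 for DML3 and 2.48 for ATMG01080. Genes with no or few counts in Ler, asil2-1 and Col-0 gave 10.51 for AT5G03090, 8.07 for AT1G36920 and 10.47 for AT3G30200. Those values also depend on the prior count.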

How the results depend on the processing

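Against 1167 calls (468 higher, 699 lower), library size alone gave 1344 with 780 higher, trimmed-mean and RLE scaling differed little (1175 for RLE), DESeq2 gave 1606, the stricter filter 1183, no filter 1027, the 6 libraries alone 931, the length correction 1283 and removal of organellar genes 1160. Leaving out 1 library gave 482 to 1371 calls, 185 to 500 higher and 270 to 871 lower. The replicate numbers gave no clear pairing of the libraries. The deviations of same-numbered libraries correlated at 0.23, -0.14 and 0.24. For asil2-2 replicates 1 and 3 the best match was the Ler library of the same number, and for replicate 2 it was not. With 3 libraries a group, these correlations are too few to tell whether same-numbered libraries shared a batch. With the replicate block there were 1281 calls over 21 libraries, 1032 in the 6 libraries alone and 1391 together with the length correction. ASIL2 was uncalled throughout, with log2 fold changes from -0.62 to -0.24. Called differences from the asil2-1 effect numbered 4437, and 3411 to 4621 under the alternatives that hold all 4 groups. Of the 56 called genes named, 40 kept their call in each of the 17 alternatives that gave them an adjusted p, and 51 did so among the 11 that leave out no library; AT3G30200 had none in DESeq2, WRKY38 none in either fit to the 6 libraries alone, and ATMG01080 none with the length correction, alone or with the block, or with organellar genes removed. Of the 56, 11 lost it only when 1 library was left out and 0 changed direction. The cause of these moves was not tested, beyond the smaller number of libraries in the fits that leave one out.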
